A study of Mus musculus with 18 samples.

Results

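The genes described here are 10 of the 55602 gene names in the data: the bone morphogenetic protein (BMP) ligands *Bmp4*, *Bmp6* and *Bmp7*, the homeobox factors *Msx1*, *Msx2*, *Msx3* and *Lmx1a* of the dorsal midline, and the BMP target genes *Id1*, *Id3* and *Id4*. They were chosen by name, and each was taken from the entry carrying its symbol, with the highest mean where a table held several entries. RNA-seq was done at postnatal day 0 (P0) in 4 tissue and genotype settings, each with control (Ctrl) and conditional knockout (cKO) mice. In the hippocampus (3 Ctrl and 3 cKO libraries), in neurospheres grown from hippocampal progenitors (2 and 2) and in the cortex (2 and 2), the controls were *Kdm2b* fl/+ or fl/fl, a mixture the labels do not resolve, and the knockouts were *Kdm2b* Emx1-ΔCxxC. A further set of hippocampi (2 and 2) compared *Rnf2* fl/+ or fl/fl controls with *Rnf2* Emx1-cKO. Cre was driven by *Emx1*, which is active in progenitors of the dorsal telencephalon and their progeny. Blood vessels and meninges arise from other lineages. The *Kdm2b* deletion removes the exon for the CxxC zinc finger and leaves the rest of the gene.

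BMPs are secreted dimers that bind type I and type II serine/threonine kinase receptors, whereupon Smad1, Smad5 and Smad9 are phosphorylated, join Smad4 and enter the nucleus. Id genes, which encode helix-loop-helix proteins without a DNA-binding domain, and Msx genes are well-known targets of this route. In the developing forebrain the cortical hem, a strip of tissue at the medial edge of the cortex beside the hippocampal primordium, secretes BMPs and Wnts, and *Lmx1a* marks the hem and other roof plate derivatives. Meninges and choroid plexus make BMPs too. KDM2B binds unmethylated CpG-rich DNA through its CxxC finger and belongs to a variant of Polycomb repressive complex 1, and Ring1B, encoded by *Rnf2*, is the ubiquitin ligase of that complex.

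Because the CxxC finger recognises CpG dinucleotides, the promoters of members are shown with every CG in capitals. The sequences come from RefSeq (GRCm38.p6), run from 250 bases before to 50 after the annotated start, and were found for 8 of the 10 members, all but *Bmp7* and *Id1*. The 4 printed here belong to genes called higher in *Kdm2b* cKO hippocampus (*Msx1*, *Lmx1a*, *Id4*) or cortex (*Msx1*, *Msx3*), and are read 5′ to 3′ on the strand of the gene: *Msx1* at chr5:37824536-37824835 (minus strand), *Msx3* at chr7:140049039-140049338 (minus), *Lmx1a* at chr1:167689308-167689607 (plus) and *Id4* at chr13:48260866-48261165 (plus).
Msx1: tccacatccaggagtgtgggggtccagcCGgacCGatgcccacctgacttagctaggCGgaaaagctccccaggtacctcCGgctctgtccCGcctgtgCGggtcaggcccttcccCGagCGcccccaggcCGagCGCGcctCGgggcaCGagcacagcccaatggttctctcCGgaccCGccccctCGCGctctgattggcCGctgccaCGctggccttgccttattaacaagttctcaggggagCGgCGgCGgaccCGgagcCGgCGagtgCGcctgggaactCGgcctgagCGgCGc
Msx3: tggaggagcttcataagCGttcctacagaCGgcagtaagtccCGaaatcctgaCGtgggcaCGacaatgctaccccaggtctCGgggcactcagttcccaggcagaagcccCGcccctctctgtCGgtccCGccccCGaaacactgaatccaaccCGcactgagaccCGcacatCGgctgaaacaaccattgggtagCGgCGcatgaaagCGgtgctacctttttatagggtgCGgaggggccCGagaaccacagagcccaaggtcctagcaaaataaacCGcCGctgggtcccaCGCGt
Lmx1a: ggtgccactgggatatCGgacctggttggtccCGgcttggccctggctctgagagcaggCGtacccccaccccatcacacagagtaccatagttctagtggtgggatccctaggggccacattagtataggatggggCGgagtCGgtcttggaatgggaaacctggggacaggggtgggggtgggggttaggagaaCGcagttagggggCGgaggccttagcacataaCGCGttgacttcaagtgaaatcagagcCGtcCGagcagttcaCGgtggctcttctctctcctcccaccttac
Id4: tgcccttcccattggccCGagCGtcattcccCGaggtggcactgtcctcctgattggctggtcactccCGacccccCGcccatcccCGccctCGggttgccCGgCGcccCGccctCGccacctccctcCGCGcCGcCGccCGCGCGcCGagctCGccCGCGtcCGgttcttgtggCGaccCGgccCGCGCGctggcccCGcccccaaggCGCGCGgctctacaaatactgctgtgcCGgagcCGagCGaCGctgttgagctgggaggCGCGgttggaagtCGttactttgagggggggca

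The *Id4* window held 39 CGs, more than 95.6% of the 32851 promoters of the table, whose median was 7 with quartiles of 3 and 20. *Msx1* had 29 CGs and *Msx3* 22, above 87.1% and 76.9% of promoters. *Lmx1a*, with 12, lay above 60.4%, as did *Bmp4*, also with 12. *Bmp6* held 27, *Msx2* 22 and *Id3* 19. The letters GGCGCC, a known Smad-binding core that reads the same on both strands and whose inner CG is among those counted, occurred in 1 of the 8 windows, that of *Id4*, against 11.9% of all promoters. These letter counts describe the windows, and no binding was measured in the tables used here.

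Levels are given as FPKM, fragment counts scaled to transcript length and to the size of the library, so those of different genes can be ranked within a table. In control hippocampus *Id3* was the highest member at 86.2 ± 7.27 FPKM (mean ± SD, n = 3), followed by *Id1* at 26.5 ± 3.80 and *Id4* at 25.7 ± 2.01, which overlapped each other. *Bmp6* at 3.56 ± 0.452 and *Bmp7* at 3.54 ± 0.566 also overlapped. *Msx1*, *Msx3* and *Lmx1a* came next, between 1.29 and 2.06 FPKM with overlapping ranges, and *Msx2* (0.435 FPKM) and *Bmp4* (0.30 FPKM) were lowest. In control neurospheres *Id3* (110.8 ± 15.0 FPKM, n = 2) was followed by *Bmp7* (37.9 ± 3.30), *Id1* (30.2 ± 1.16) and *Id4* (25.3 ± 1.79), none of them overlapping the next, while *Bmp6*, *Msx3* and *Lmx1a* were listed at 0 in both control libraries. In control cortex *Id4* (14.4 ± 2.03 FPKM), *Id1* (8.16 ± 1.57) and *Id3* (4.77 ± 2.07) led, and the ligands and midline factors were all below 1 FPKM. Control hippocampi of the *Rnf2* set again had *Id3* at the top (34.5 ± 12.5 FPKM), *Id4* at 21.9 ± 0.191 and *Id1* at 14.8 ± 1.93, with *Bmp7* (2.93 ± 0.115) and *Bmp6* (2.83 ± 0.219) overlapping below them. The tables were normalised separately, so levels were not tested between them.

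**Figure D1:**
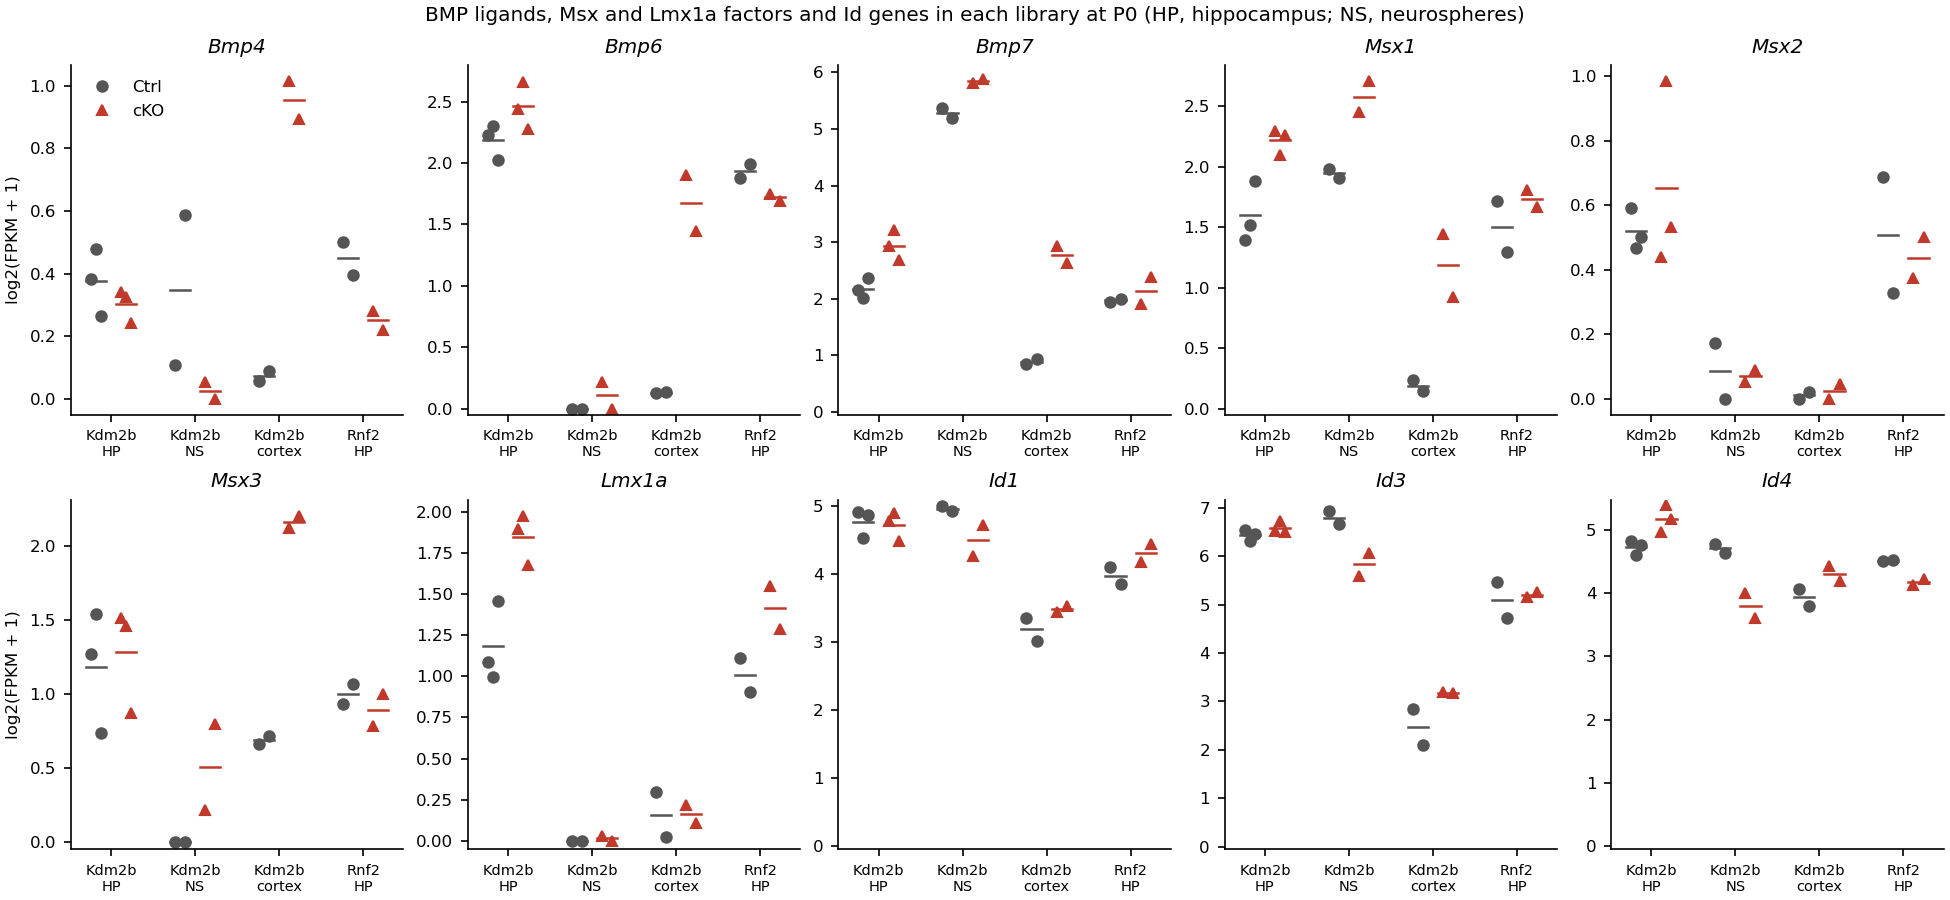
Level of each member in every library as log2(FPKM + 1), with grey circles for Ctrl, red triangles for cKO and a line at each group mean; each panel has its own vertical axis. Cortical *Bmp7* rose from 0.851 to 5.88 FPKM on average, and *Id3* and *Id4* fell in neurospheres, where *Bmp7* rose from 37.9 to 56.6 FPKM.

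Several facts of the libraries bear on these values. The hippocampal libraries expressed *Prox1* at 19.5 to 41.3 FPKM over both sets, and the cortical ones *Tbr1* at 52.9 to 63.9 FPKM and *Prox1* at no more than 1.43. Whole-gene *Kdm2b* differed little between cKO and Ctrl (log2 fold change −0.10 in hippocampus, 0.06 in neurospheres, −0.13 in cortex) and *Rnf2* was at 30.8–32.3 FPKM in Ctrl and 27.8–28.5 in its own cKO (log2 fold change −0.16, limma adjusted p = 0.762). These are values of whole genes, not of the floxed exons, so they do not check the deletion. Control neurosphere library 1 stood apart, with 29.3% of its FPKM total in entries without a gene name against at most 1.95% in the other 3 libraries of that table. Its FPKM total was 855276, against 452580 to 522964 in those 3. The reads behind each value cannot be read from the first hippocampal and the neurosphere tables, whereas the cortical libraries held 18480515 to 21905224 reads on genes and the *Rnf2* libraries 14654894 to 16334420. The labels do not say that replicates came from separate animals, so p-values measure the spread between these samples, which may be technical. With 2 or 3 libraries in each group, groups can fail to overlap without any effect of genotype. In bulk tissue, fewer cells of a type and less RNA per cell cannot be told apart.

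The first comparison asked which members changed in the hippocampus when KDM2B lacked its CxxC finger. A gene was called higher or lower when its log2 fold change, computed on log2(FPKM + 1), exceeded 0.4 in size at an unadjusted limma p under 0.05, the thresholds of the study. Of the 10 members, 9 passed the filter of a mean of 0.5 FPKM, and 4 of them, *Bmp7*, *Msx1*, *Lmx1a* and *Id4*, were called higher, where 3.89% of the 13446 genes tested were. None was called lower, against 2.25% of all genes, and 5 showed no call, among them *Bmp6* and *Id3*. All 4 also had a Benjamini-Hochberg adjusted p under 0.05 over all genes, which together with the fold threshold held for 2.94% of genes. The median log2 fold change of the 9 members was 0.27, beside 0.0084 for all genes. *Msx2*, with a Ctrl mean of 0.435 FPKM, passed the filter only through the cKO libraries and fell below it without cKO 2. The count of 9 and the median include it.

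*Bmp7*, the ligand with the clearest change, lies at chr2:172868012-172940321 on the minus strand (GRCm38). It measured 3.46, 3.02 and 4.14 FPKM in the Ctrl libraries and 6.59, 8.25 and 5.42 in the cKO libraries. All cKO values lay above all Ctrl values. The means were 3.54 ± 0.566 and 6.75 ± 1.42 FPKM (n = 3 each), a log2 fold change of 0.76 (SE 0.14, 95% confidence interval 0.44 to 1.09, limma adjusted p = 0.0155). *Bmp6*, a ligand of the same subgroup at chr13:38345107-38500302, read 3.69, 3.94 and 3.06 FPKM in Ctrl and 4.43, 5.33 and 3.85 in cKO. The lowest cKO library fell within the Ctrl range, and the log2 fold change of 0.27 (SE 0.12) was not called (limma adjusted p = 0.226). *Bmp4*, the classical hem and roof plate ligand at chr14:46383520-46390669, was below the filter at 0.202 to 0.394 FPKM in Ctrl and 0.183 to 0.268 in cKO, and the groups overlapped.

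*Msx1*, a homeobox repressor induced by BMP signals and located at chr5:37820485-37824583, was at 1.62, 1.87 and 2.69 FPKM in Ctrl and at 3.92, 3.27 and 3.79 in cKO. The groups did not overlap, and the log2 fold change was 0.62 (SE 0.14, limma adjusted p = 0.0278). *Lmx1a* at chr1:167689237-167848741 rose by a like amount, from 1.13, 0.995 and 1.75 FPKM to 2.72, 2.94 and 2.2. Again every cKO library exceeded every Ctrl library, with means of 1.29 ± 0.405 and 2.62 ± 0.380 FPKM and a log2 fold change of 0.67 (SE 0.15, limma adjusted p = 0.0265). The other Msx genes were not called. *Msx2* was at 0.383 to 0.506 FPKM in Ctrl and 0.354 to 0.978 in cKO, and *Msx3* at 0.666 to 1.91 and 0.827 to 1.86. Both sets of groups overlapped, and the 95% confidence interval of the *Msx3* log2 fold change ran from −0.42 to 0.62, which leaves room for a change of either sign past the threshold.

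Of the Id genes, *Id4* (chr13:48261228-48266026), which is strongly expressed in neural progenitors, read 27.3, 23.4 and 26.3 FPKM in Ctrl and 30.4, 41.2 and 35.1 in cKO. The groups did not overlap, and the log2 fold change was 0.45 (SE 0.10, limma adjusted p = 0.0302). Its call rested on single libraries, since the log2 fold change was 0.38 without Ctrl 2 and 0.34 without cKO 2, both under the fold threshold. *Id1* (chr2:152736251-152737410) was at 22.1 to 29.1 FPKM in Ctrl and 21.5 to 29.0 in cKO, ranges that nearly coincide. *Id3* (chr4:136143497-136145755) was at 78.4 to 92.8 and 89.7 to 104.9 FPKM, a log2 fold change of 0.14 (SE 0.077, limma adjusted p = 0.318). With any 1 library left out, *Bmp7*, *Msx1* and *Lmx1a* still passed both thresholds, with log2 fold changes of 0.63 to 0.89, 0.52 to 0.76 and 0.57 to 0.81. Their largest limma adjusted p values were then 0.0518, 0.0925 and 0.101, and without the filter on low genes *Msx1*, *Lmx1a* and *Id4* had adjusted p values of 0.0670, 0.0589 and 0.0704.

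Markers of other cell types were measured beside these genes. The summed level of 12 choroid plexus markers was 15.9 to 30.1 FPKM in Ctrl and 18.5 to 71.5 in cKO hippocampi. Within that sum *Ttr*, the choroid plexus transthyretin, was at 3.96, 3.64 and 14.2 FPKM in Ctrl and at 56.0, 37.9 and 5.29 in cKO. Of 5 markers of that list tested, 2 were called higher, *Ttr* among them (log2 fold change 1.77, limma adjusted p = 0.194), and none by adjusted p. *Folr1*, the second marker of the list, had a log2 fold change of 0.18. The cKO library lowest in *Ttr*, cKO 3, was also the lowest of its group in *Lmx1a* (2.2 FPKM) and *Bmp7* (5.42 FPKM). *Msx1* was lowest in cKO 2 (3.27 FPKM) and *Id4* in cKO 1 (30.4 FPKM). *Ttr* was higher in cKO 1 than in cKO 2, whereas *Bmp7* and *Lmx1a* were higher in cKO 2. Among the Ctrl libraries, Ctrl 3 was highest in *Ttr*, *Bmp7* (4.14 FPKM), *Lmx1a* (1.75) and *Msx1* (2.69), and *Id4* was highest in Ctrl 1 (27.3). Meningeal markers summed to 49.9–67.6 FPKM in Ctrl and 38.8–64.7 in cKO, with 0 of 11 called by limma and 0 at an unadjusted p under 0.05, and endothelial markers to 79.0–105.0 and 75.1–97.0, with the same counts of 0 of 9. Progenitor markers moved with the rise: their sum went from 275.4–316.8 to 369.3–408.8 FPKM, all 6 were higher in every cKO library, and 3 of 6 were called, among them *Nes* (log2 fold change 0.52, limma adjusted p = 0.0238). Cajal-Retzius markers had 2 of 6 called higher and thalamic markers 2 of 4, with sums of 103.8–120.1 FPKM in Ctrl and 124.6–137.3 in cKO for the latter. Of 8 astrocyte markers 2 were called lower, but 3 had a higher cKO mean. The astrocyte sum was 249.0–264.1 FPKM in Ctrl and 253.9–334.9 in cKO. The neuronal sum was 1355–1483 FPKM in Ctrl and 1062–1322 in cKO, with 0 of 5 called by limma although 4 had an unadjusted p under 0.05. The part of these cell types in the members' changes was not tested.

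**Figure D2:**
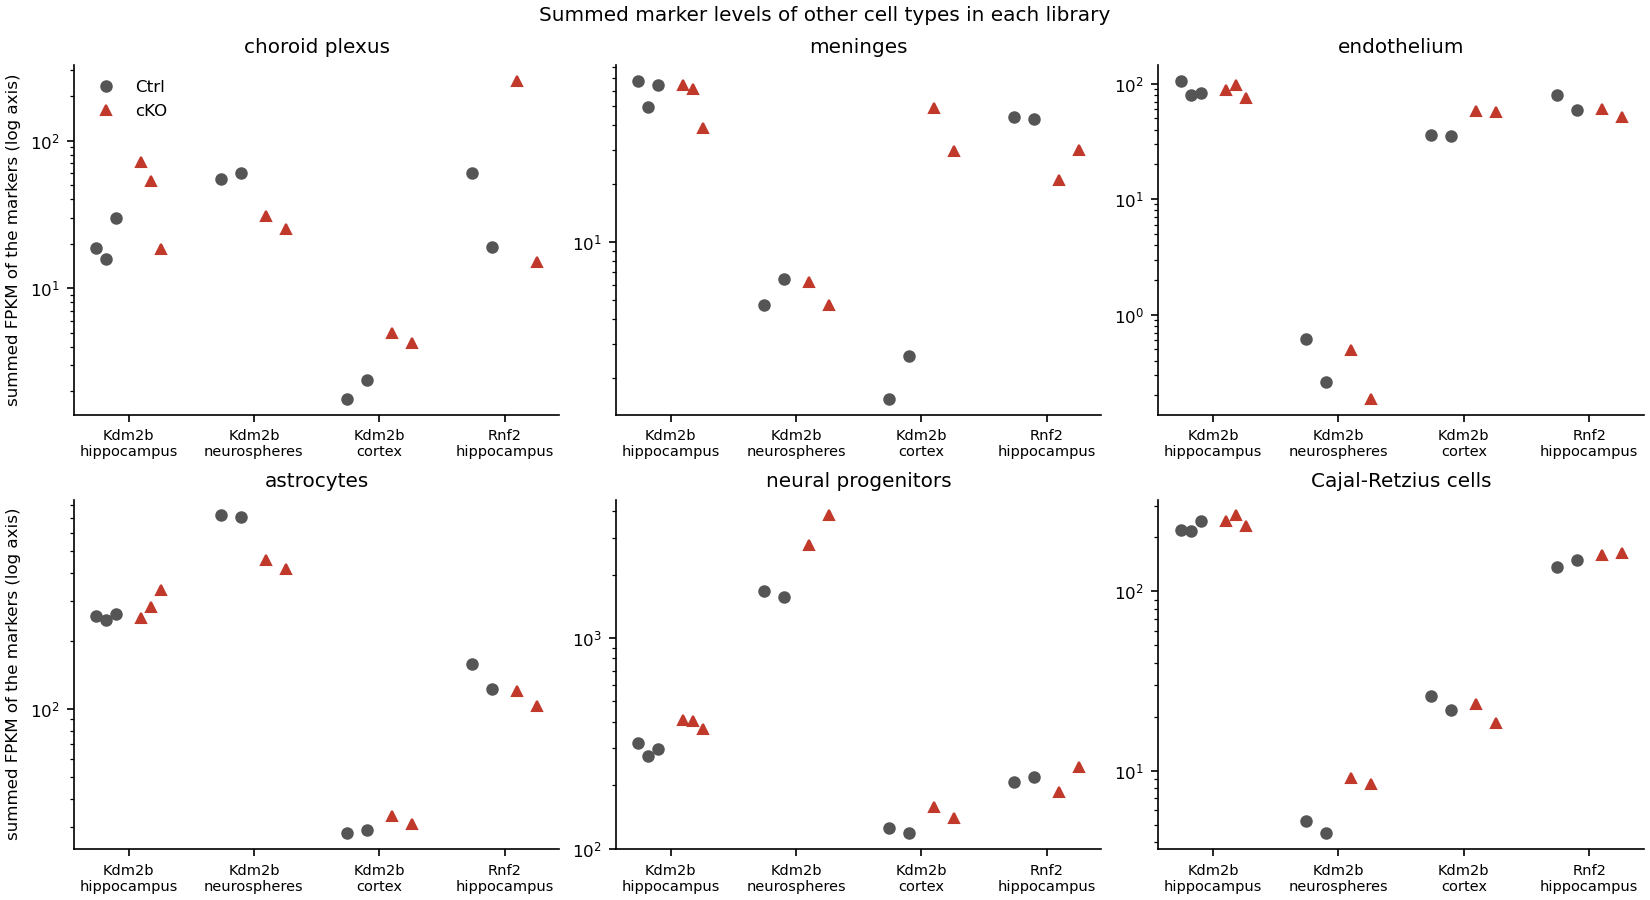
Summed FPKM of marker genes for 6 other cell types in each library, on log axes that differ between panels, with grey circles for Ctrl and red triangles for cKO. Meningeal markers summed to 1.56–2.58 FPKM in Ctrl and 29.3–49.0 in cKO cortex, and astrocyte markers to 709.7–719.4 in Ctrl and 415.3–455.3 in cKO neurospheres.

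The rest of the pathway was examined through 65 listed genes in 6 groups. In cKO hippocampus 59 were tested, 16 were called higher and 2 lower, with a median log2 fold change of 0.074. Among 12 tested transcription factors of the dorsal midline and other BMP targets, 8 were called higher (6 by adjusted p), led by the zinc finger genes *Zic4* (log2 fold change 1.62), *Zic1* (1.32) and *Zic5* (0.84) and by *Otx2* (0.82). The group's median was 0.69. Of 7 hem Wnt genes 5 were called higher (4 by adjusted p), including *Wnt8b* (1.16), *Rspo1* (1.12), *Wnt3a* (0.71) and *Wnt5a* (0.44), and the median was 0.44. *Wnt8b* and *Wnt3a* are classical hem markers, and *Rspo1* encodes an enhancer of Wnt signalling.

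Of 6 other BMP and GDF ligands tested, *Gdf10* was called higher (22.4 ± 2.71 to 31.2 ± 2.01 FPKM, log2 fold change 0.47), and of 10 receptors and co-receptors the activin type II receptor gene *Acvr2b* was (0.44). None of 11 Smads, partners and inhibitors was called by limma, although 4 had an unadjusted p under 0.05. Among 13 secreted antagonists and modulators tested, 1 was called higher, *Chrd* (0.44), and 2 lower (1 by adjusted p), including *Fst* (−0.80). *Chrd* encodes a direct BMP antagonist and *Fst* an activin and BMP antagonist.

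**Figure D3:**
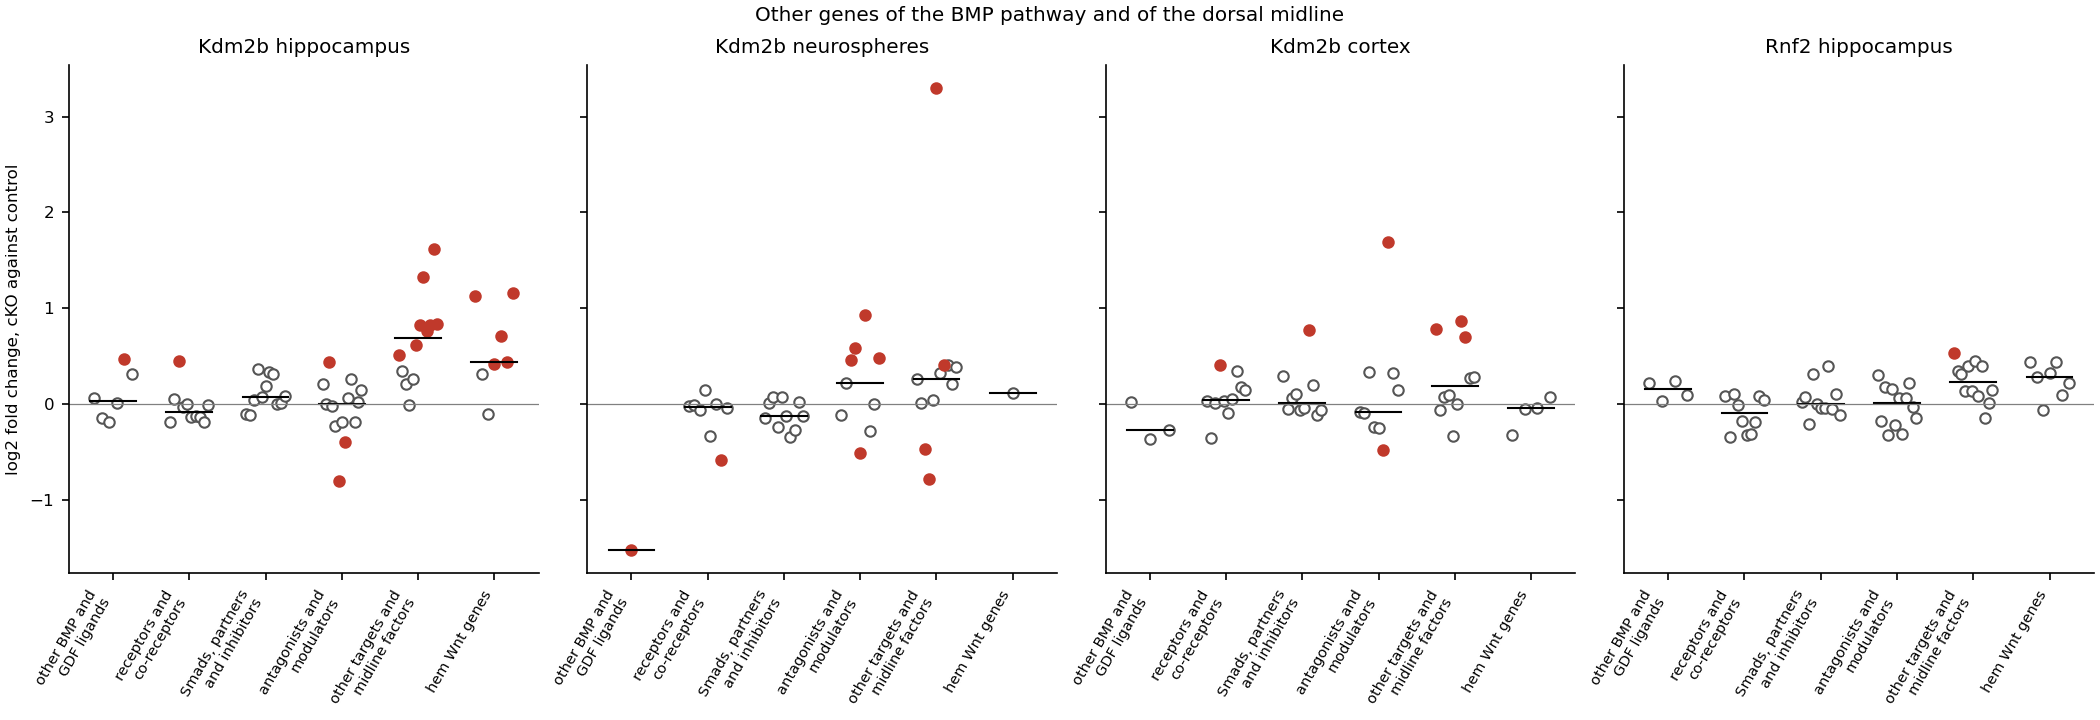
Log2 fold change, cKO against Ctrl, of each tested gene in 6 groups of BMP pathway and dorsal midline genes, 1 panel for each comparison; filled red points were called, open points were not, and lines mark group medians. In the *Kdm2b* hippocampus 8 of 12 midline and target factors and 5 of 7 hem Wnt genes were called higher.

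The same deletion was examined in neurospheres expanded from P0 hippocampal progenitors in FGF2 and EGF. Here 5 members passed the filter and all 5 were called, *Bmp7* and *Msx1* higher and *Id1*, *Id3* and *Id4* lower. Of the 12227 genes tested, 11.4% were called higher and 13.2% lower. By adjusted p, 2 members were higher and 2 lower (not *Id1*), against 9.13% and 10.2% of all genes. The median log2 fold change of the 5 members was −0.46, beside −0.011 for all genes.

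*Bmp7* measured 40.2 and 35.5 FPKM in Ctrl and 55.4 and 57.7 in cKO neurospheres. The groups did not overlap, and the log2 fold change was 0.57 (SE 0.092, limma adjusted p = 0.0107). In the cKO neurospheres *Bmp7*, at 56.6 ± 1.68 FPKM, reached the level of *Id3*, which was the higher of the pair in the Ctrl cultures. *Msx1* went from 2.95 and 2.76 to 4.46 and 5.55 FPKM, a log2 fold change of 0.63 (SE 0.14, limma adjusted p = 0.0267). *Bmp6*, *Msx3* and *Lmx1a*, listed at 0 in both Ctrl libraries, were at 0.161 and 0, at 0.158 and 0.738, and at 0.0208 and 0 FPKM in the cKO libraries, all under the filter. *Bmp4* (at most 0.501 FPKM) and *Msx2* (at most 0.126) were under it as well.

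*Id3* fell from 121.4 and 100.2 FPKM to 47.4 and 66.4, and *Id4* from 26.5 and 24.0 to 15.0 and 11.2. Both cKO libraries lay below both Ctrl libraries for each gene. The log2 fold changes were −0.96 for *Id3* (SE 0.18, limma adjusted p = 0.0168) and −0.91 for *Id4* (SE 0.14, limma adjusted p = 0.0102). *Id1* was at 31.0 and 29.4 FPKM in Ctrl and 18.3 and 25.5 in cKO, a log2 fold change of −0.46 (SE 0.16, limma adjusted p = 0.0849). *Id2*, the remaining Id gene of the target list, fell from 164.4 and 140.0 to 83.7 and 92.3 FPKM (log2 fold change −0.78, limma adjusted p = 0.00781). The *Id1* call was lost without Ctrl 1, without Ctrl 2 or without cKO 1 (−0.43, −0.50 and −0.24) and when libraries were scaled to equal FPKM totals (−0.35). Without Ctrl 1, the library that stood apart, *Bmp7*, *Msx1*, *Id3* and *Id4* kept their calls, with log2 fold changes of 0.66, 0.67, −0.82 and −0.84 and limma adjusted p values of 0.0701, 0.143, 0.130 and 0.0981.

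In the same cultures astrocyte markers fell. All 8 were lower in both cKO libraries and 7 were called, including *Aqp4*, the astrocytic water channel (log2 fold change −1.08), and *Gfap*, from 20.3 and 28.7 to 4.37 and 5.89 FPKM (−2.05). Choroid plexus markers summed to 55.2–60.1 FPKM in Ctrl and 24.99–30.8 in cKO, with 1 of 2 tested called lower and *Folr1* at 0 in every library. Of the 12 choroid plexus markers, however, 6 had a higher cKO mean, with 3 above Ctrl in both cKO libraries and 2 below. Progenitor markers summed to 1570–1670 FPKM in Ctrl and 2777–3824 in cKO, with 2 of 6 called higher, including *Nes* (0.89), and 1 lower. The list was mixed, however, with 3 fold changes positive and 3 negative and a median log2 fold change of 0.001. The endothelial marker *Cldn5* was at 0 in every neurosphere library, and meningeal markers summed to 4.71–6.43 FPKM in Ctrl and 4.74–6.23 in cKO. The part of these cell types in the members' changes was not tested. Of the 65 pathway genes 40 were tested here, 6 were called higher and 5 lower. These shares are near those of all genes tested, 11.4% and 13.2%. None of 10 Smads, partners and inhibitors tested was called by limma, 1 having an unadjusted p under 0.05. Of 9 antagonists and modulators 4 were higher, *Fst* (0.93), *Chrdl1* (0.58), *Twsg1* (0.48) and *Chrd* (0.46), and *Crim1* (−0.51) was lower. *Otx2* was higher by a log2 fold change of 3.29, *Zic2* by 0.41, and *Emx2* (−0.47), the BMP co-receptor gene *Rgma* (−0.59) and the ligand gene *Bmp3* (−1.52) were lower.

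**Figure D4:**
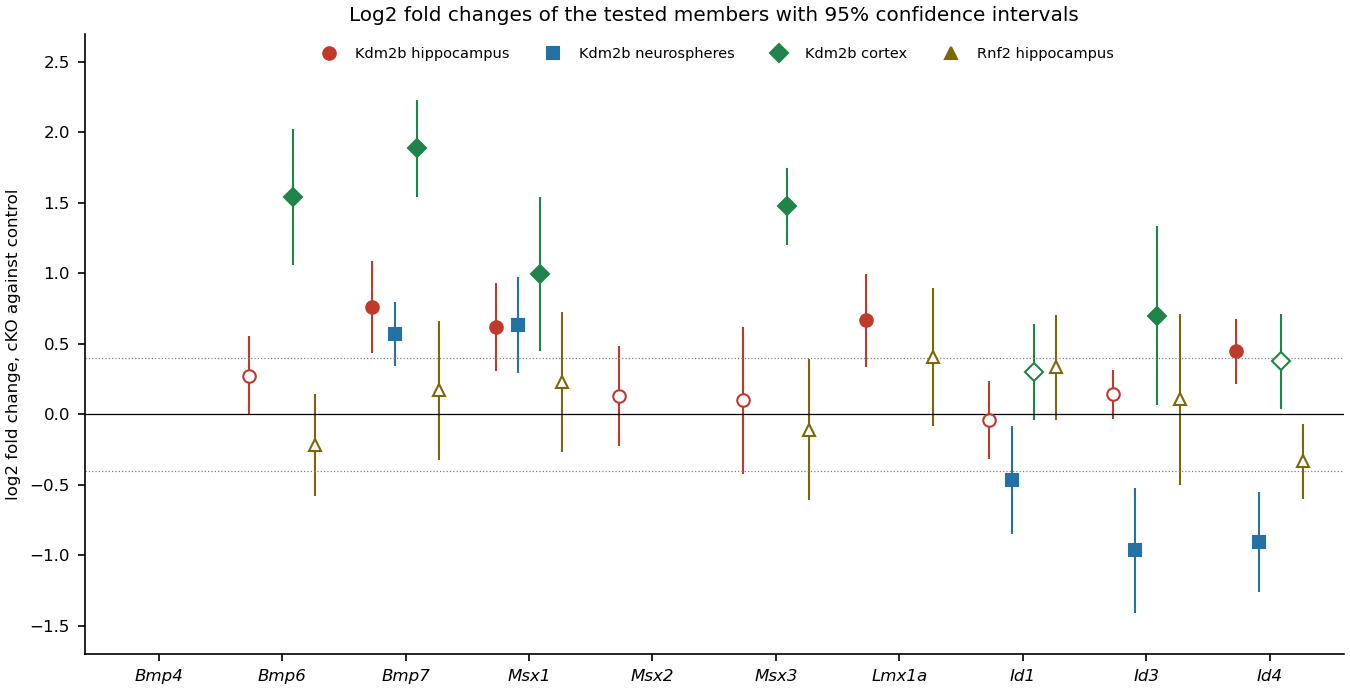
Log2 fold change of each tested member, cKO against Ctrl, with bars for 95% confidence intervals; filled symbols were called, open symbols were not, and dotted lines mark the fold threshold of 0.4. *Bmp7* and *Msx1* lay above the threshold in the 3 *Kdm2b* comparisons, while *Id4* was above it in hippocampus (0.45) and below −0.4 in neurospheres (−0.91).

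In the cortex, 7 members passed the filter and 5 were called higher, *Bmp6*, *Bmp7*, *Msx1*, *Msx3* and *Id3*, where 4.72% of the 15803 genes tested were. None was called lower, against 2.29% of genes. By adjusted p the count was 2, *Bmp7* and *Msx3*, against 0.373% of genes. The median log2 fold change of the 7 members was 1.00, beside −0.0054 for all genes. *Bmp6* and *Msx1* passed the filter only through the cKO libraries, with Ctrl means of 0.0948 and 0.141 FPKM. A call of lower was thus hardly possible for them, and the count of 5 and the median include both. Reads could be recovered from these values, and ratios of reads per library depth are given with 95% counting intervals, which cover counting error only.

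*Bmp7* went from 0.802 and 0.901 FPKM in Ctrl to 6.60 and 5.16 in cKO cortex, or from 71 and 77 reads to 521 and 388. The read ratio was 6.94 (interval 5.83 to 8.32), and the log2 fold change on log2(FPKM + 1) was 1.89 (SE 0.13, limma adjusted p = 0.0247), or 2.78 with limma-voom on the reads. *Bmp6* went from 0.0931 and 0.0965 to 2.73 and 1.73 FPKM, or from 8 and 8 reads to 209 and 126, a ratio of 23.7 (14.4 to 41.9). Its log2 fold change of 1.54 (SE 0.19) had a limma adjusted p of 0.0727, while limma-voom on the reads gave 4.45 with an adjusted p of 0.00349. *Bmp4*, just under the filter, had 2 and 3 reads in Ctrl and 45 and 36 in cKO, or 0.0404 and 0.0628 against 1.02 and 0.856 FPKM. The read ratio was 18.3 (7.53 to 57.9). Few Ctrl reads lay behind the values of *Bmp4* and *Bmp6*.

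*Msx3*, which in mouse is normally restricted to the dorsal neural tube, stood at 0.578 and 0.639 FPKM in Ctrl and 3.35 and 3.61 in cKO cortex, or 30 and 32 reads against 155 and 159. Its log2 fold change was 1.48 (SE 0.11, limma adjusted p = 0.0247) and the read ratio 5.73 (4.35 to 7.65). *Msx1* went from 0.176 and 0.106 to 1.73 and 0.898 FPKM, with 12 and 7 reads against 105 and 52, a ratio of 9.34 (5.79 to 15.9). The groups did not overlap, and the log2 fold change was 1.00 (SE 0.21, limma adjusted p = 0.177) and 3.13 by limma-voom (adjusted p = 0.0174). Without cKO 1 *Msx1* fell below the filter. *Msx2* had 0 and 1 reads in Ctrl and 0 and 2 in cKO. *Lmx1a*, unlike *Msx1*, did not separate the groups, with 17 and 1 reads in Ctrl and 11 and 5 in cKO, a ratio of 1.00 whose interval of 0.479 to 2.09 covers a change of either sign.

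The Id genes moved less. *Id3* was at 6.23 and 3.31 FPKM in Ctrl and 8.13 and 8.0 in cKO cortex, a log2 fold change of 0.70 (SE 0.25, limma adjusted p = 0.346). Its call was lost when Ctrl 2, cKO 1 or cKO 2 was left out and when no filter was applied. *Id4* was at 15.8 and 12.9 FPKM in Ctrl and 20.5 and 17.3 in cKO, and *Id1* at 9.27 and 7.06 and at 9.92 and 10.5. Neither pair of groups overlapped, but the log2 fold changes of 0.38 and 0.30 were under the threshold. Both were called without Ctrl 1 (0.51 and 0.48), and *Id4* also without cKO 2 (0.49) and by limma-voom on the reads (0.40, adjusted p = 0.145). The adjusted calls of *Bmp7* and *Msx3* were sensitive to each library: their limma adjusted p lay between 0.0754 and 0.29 and between 0.0754 and 0.292 with 1 library left out, although their log2 fold changes stayed between 1.74 and 2.04 and between 1.44 and 1.52.

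Markers of non-neural cells moved with these genes in the cortex. Meningeal markers summed to 1.56–2.58 FPKM in Ctrl and 29.3–49.0 in cKO, all 11 were higher in both cKO libraries, and 10 of 10 tested were called. *Col1a1*, a fibroblast collagen gene, was at 0.104 and 0.323 FPKM in Ctrl and at 5.29 and 2.43 in cKO, and *Col1a2* at 0.164 and 0.318 and at 5.84 and 2.55. Both passed the filter only through the cKO libraries. With a Ctrl sum this low, that holds for most of the 10 tested. A call of lower was hardly possible for such genes, so the count of 10 was partly set by the filter. The library with the larger meningeal sum, cKO 1, also had the larger values of *Bmp4*, *Bmp6*, *Bmp7*, *Msx1*, *Lmx1a*, *Id3* and *Id4*. *Msx2*, *Msx3* and *Id1* were higher in cKO 2. The order of 2 libraries carries no test. Endothelial markers went from 34.9–36.3 to 56.4–57.8 FPKM, with 3 of 9 called, including *Cldn5* (25.6 and 23.9 to 39.8 and 40.9 FPKM). Choroid plexus markers summed to 1.78–2.39 FPKM in Ctrl and 4.23–5.01 in cKO, 9 of 12 had a higher cKO mean and 2 of 2 tested were called higher, neither by adjusted p. Their Ctrl sum was low too, so passing the filter could also rest on the cKO libraries. *Ttr* was at most 0.849 in Ctrl and 0.0439 in cKO and *Folr1* was at 0 in both cKO libraries. The part of meningeal, vascular and choroid plexus RNA in the cortical changes was not tested.

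Of the 65 pathway genes 46 were tested in cortex, with 6 called higher and 1 lower. *Nbl1*, which encodes a secreted BMP antagonist, rose from 1.41 and 1.48 to 7.36 and 6.39 FPKM (log2 fold change 1.69, limma adjusted p = 0.0174). *Smad6*, the inhibitory Smad, went from 1.39 and 1.47 to 3.75 and 2.64 FPKM (0.78, limma adjusted p = 0.156). *Zic1* (0.86), *Dmrt3* (0.78), *Zic2* (0.70) and the endothelial receptor gene *Acvrl1* (0.41) were also called higher, and the antagonist gene *Grem1* (−0.48) lower. None of the 4 hem Wnt genes tested was called by limma, and none had an unadjusted p under 0.05.

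The *Rnf2* cKO addressed the same genes under loss of the complex's ubiquitin ligase. Of 8 members tested in these hippocampi, 0 were called by limma, where 4.71% of 15764 genes were called in either direction. By limma-voom on the recovered reads the count was also 0, and 1 member, *Id4*, had an unadjusted p under 0.05. The median log2 fold change of the 8 members was 0.14, beside −0.0002 for all genes. *Bmp7* was at 2.84 and 3.01 FPKM in Ctrl and at 2.74 and 4.23 in cKO, so the groups overlapped. The log2 fold change was 0.17 (SE 0.20), and its 95% confidence interval of −0.32 to 0.66 includes rises past the threshold. *Msx1*, at 2.29 and 1.45 and at 2.50 and 2.18 FPKM, overlapped likewise, with an interval of −0.27 to 0.73.

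*Lmx1a* was at 1.16 and 0.871 FPKM (59 and 46 reads) in Ctrl and at 1.92 and 1.44 (108 and 79 reads) in cKO. The groups did not overlap and the read ratio was 1.66 (1.30 to 2.13 for counting error), yet the log2 fold change of 0.41 (SE 0.20) did not pass the test against the spread between libraries (limma adjusted p = 0.727). *Id4* was lower, at 21.7 and 22.0 FPKM in Ctrl and 16.5 and 17.8 in cKO, with a log2 fold change of −0.33 (SE 0.11, limma adjusted p = 0.679) that did not reach the fold threshold. *Bmp6* was at 2.67 and 2.98 and at 2.36 and 2.23 FPKM (log2 fold change −0.21), *Msx3* at 0.908 and 1.09 and at 0.719 and 0.997 (−0.11). *Id1* was at 16.2 and 13.5 and at 17.2 and 20.8 FPKM (0.33) and *Id3* at 43.4 and 25.7 and at 34.9 and 37.2 (0.11). *Bmp4*, below the filter, had 14 and 11 reads in Ctrl and 8 and 6 in cKO, a ratio of 0.523 (0.251 to 1.05). *Msx2* was at 0.255 to 0.611 FPKM over all 4 libraries.

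Ctrl 1 weighed on this comparison: without it *Id1* (log2 fold change 0.46) and *Id3* (0.47) were called higher. Meningeal markers went the other way from the cortex, from 42.9–44.4 to 20.9–29.9 FPKM with 5 of 9 called lower, and *Ttr* varied between libraries of a group, at 47.5 and 11.5 FPKM in Ctrl and 233 and 6.19 in cKO. The part of these cell types in the members' values was not tested. Of the 56 pathway genes tested, 1 was called, *Dmrt3*, which was higher (log2 fold change 0.54, limma adjusted p = 0.655).

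Whether the effect of genotype differed between settings was tested as an interaction in limma, with all 3 tests sharing the *Kdm2b* hippocampal libraries. Between hippocampus and neurospheres 2 of 5 members differed at an adjusted p under 0.05, where 26.9% of the 11080 genes tested did. For *Id4* the log2 fold change in neurospheres minus that in hippocampus was −1.35 (SE 0.19, limma adjusted p = 0.000549), and for *Id3* it was −1.10 (SE 0.19, limma adjusted p = 0.00203). Both differences held with each library left out. The differences for *Msx1* (0.02, limma adjusted p = 0.965), *Bmp7* (−0.19, adjusted p = 0.511) and *Id1* (−0.42, adjusted p = 0.179) did not pass.

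Between hippocampus and cortex 2 of 7 members differed, against 1.62% of 10714 genes. Of these 7, *Bmp6* and *Msx1* passed the filter in cortex only through the cKO libraries. The log2 fold change was larger in cortex by 1.27 for *Bmp6* (SE 0.21, limma adjusted p = 0.0120) and by 1.12 for *Bmp7* (SE 0.22, limma adjusted p = 0.0274). *Msx3* differed by 1.38 (SE 0.32) with a limma adjusted p of 0.0585, and *Msx1* by 0.38 (adjusted p = 0.540). With a pseudocount of 0.1 the differences were 3.21 for *Bmp6*, 1.74 for *Bmp7*, 2.16 for *Msx3* and 1.67 for *Msx1*. Their limma adjusted p values were then 0.000164, 0.00495, 0.0755 and 0.0556. Without cortical cKO 1 the differences were 1.04 for *Bmp6* (limma adjusted p = 0.0745) and 0.97 for *Bmp7* (0.142). The *Bmp7* difference also missed the threshold without cortical Ctrl 2 (limma adjusted p = 0.0733) and without hippocampal Ctrl 1, Ctrl 3 or cKO 1 (0.0634, 0.0618 and 0.0533).

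Between the *Kdm2b* and *Rnf2* hippocampi 1 of 8 members differed, against 0.683% of 11271 genes. For *Id4* the log2 fold change in *Rnf2* cKO minus that in *Kdm2b* cKO was −0.78 (SE 0.16, limma adjusted p = 0.0498), and this did not hold in most fits with a library left out. *Bmp7* differed by −0.59 (limma adjusted p = 0.281), *Msx1* by −0.39 (0.457) and *Lmx1a* by −0.26 (0.640). These 3 genes were called in the *Kdm2b* and not in the *Rnf2* hippocampus, but the test of the difference passed for none of them.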

How the data were processed

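Gene-level FPKM values were deposited by the authors for 18 libraries in 4 tables. The submitters' processing notes name cutadapt, STAR and Cufflinks 2.2.1, and the tool behind each table is not given in the sources used here. The study tested read counts; as FPKM are not counts, limma 3.58.1 (R 4.3.3) was fitted to log2(FPKM + 1) in each table by itself, keeping genes that averaged 0.5 FPKM or more. Fold changes are on that scale, which understates changes of low genes. The FPKM of the cortical and *Rnf2* tables were whole multiples of 1 read (100% of values, tolerance 0.001), and reads were recovered from them. Entries without a gene name (2861 and 2059 in the first hippocampal and the neurosphere table) were left out. Groups came from the labels. Members, gene lists and tests were chosen with earlier results of these data known. All members were named, beside up to 4 called rises and 4 called falls of each pathway list and the first 2 genes of each marker list. Some genes of these lists are not reported here. Sums of markers leave out entries that join several gene names. The fits were checked on simulated data. Alternatives were another pseudocount, other filters, other scalings, no trend, a replicate block, summed entries, limma-voom on reads and each library left out, where a lone library was assumed to vary like the other group.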

Additional observations from a re-analysis of the deposited data

Results flagged for a closer look

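The effects of genotype on *Id4* and *Id3* differed between hippocampus and neurospheres by −1.35 and −1.10 on the log2 scale, by the interaction test in limma (adjusted p = 0.000549 and 0.00203). *Bmp6* and *Bmp7* differed between hippocampus and cortex by 1.27 and 1.12 (limma adjusted p = 0.0120 and 0.0274), and *Id4* between the *Kdm2b* and *Rnf2* hippocampi by −0.78 (limma adjusted p = 0.0498). *Bmp4*, under the filter on low genes, lay below the Ctrl mean in all 3 cKO hippocampi and above it in both cKO cortices, where mean cKO minus Ctrl was 0.886 FPKM. In the fit with no filter this difference between tissues was 0.95 on the log2 scale (SE 0.097, limma adjusted p = 0.00361).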

How the results depend on the processing

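Of the members' fold changes, 7 turned sign, all of them uncalled and with 1 library left out. In the *Kdm2b* hippocampus *Msx3* became −0.12 without Ctrl 3 and −0.016 without cKO 1, in a range of −0.12 to 0.31, and *Id1* became 0.030 without Ctrl 1, 0.0071 without Ctrl 3 and 0.075 without cKO 3, in a range of −0.16 to 0.075. In the *Rnf2* hippocampus *Bmp7* became −0.069 without cKO 2 (range −0.069 to 0.41) and *Id3* −0.26 without Ctrl 2 (range −0.26 to 0.47). The count of members called in cortex was 5 and ranged from 3 to 8 with 1 library left out, and was 2 by adjusted p. In the *Rnf2* hippocampus it was 0 and ranged from 0 to 2, and was 1 with no fold threshold. For hippocampus against cortex, 2 members passed and from 0 to 3 did with 1 library left out (3 without cortical Ctrl 1, which adds *Id3*). With no filter 1 passed, *Bmp4*, while *Bmp6* (limma adjusted p = 0.0525) and *Bmp7* (0.0883) did not. For *Kdm2b* against *Rnf2* hippocampus, 1 passed, from 0 to 1 with 1 library left out, and 0 with a pseudocount of 0.1, with no filter or without the trend. The causes were not tested. Replicate numbers did not pair the samples (correlation of same-numbered deviations 0.049, −0.103 and −0.086 in hippocampus, −0.277 in neurospheres, −0.052 in cortex and 0.161 in the *Rnf2* set). With the replicate block the counts called were 4, 5, 5 and 0, as without it.

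Groups of 2 or 3 libraries limit precision, and the reads behind each value cannot be read from the first hippocampal and the neurosphere tables. In cortical controls *Bmp4* rested on 5 reads over both libraries and *Msx2* on 1.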

Other observations

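Over the 18 libraries, each centred on its table's mean, the genes whose log2(FPKM + 1) followed *Bmp7* most closely among 9605 compared were *Tmem8*, *Gpr153* and *Rimbp3* (Pearson r of 0.938, 0.929 and 0.909). For *Msx1* they were *Cdyl*, *Tyro3* and *Cxxc5* (0.914, 0.912 and 0.906), and for *Id4* *Lamp2*, *Fzd9* and *Tcf7l2* (0.936, 0.916 and 0.904). The libraries share tables, scaling and genotype groups, so these coefficients describe likeness across libraries and carry no test.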
